A study of Mus musculus with 230 samples.

Results

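The expression of 9 receptor genes was followed in dorsal root ganglion (DRG) neurons of the mouse: Oprm1, Oprd1, Oprk1, Cckbr, Npy1r, Npy2r, Galr1, Galr2 and Sstr2. They were chosen by name as receptors of opioid and other neuropeptides, and all 9 of 9 were found among 53278 genes of the count table. DRG neurons carry touch, temperature and pain signals from the periphery to the spinal cord, and injury of the sciatic nerve damages the axons of many of them. All mice were C57BL/6 X CAST/Ei crosses, and ganglia L4 and L5 were dissociated with enzymes before neurons were picked by hand. The labels give the condition as injury or intact and the age, with no other treatment, allele or transgene. Each of the 6 low-input groups had 3 libraries, at an age of 1, 8 or 12 months with or without injury, numbered 1 to 3 as in their names. Counts were also given for single cells, some taken at 1 month (21 after injury, 18 intact) and others at 1 year (21 after injury, 8 intact). The labels name no animal and no time after injury, so p-values measure the spread between libraries, which may be partly technical.

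All 9 products are G protein-coupled receptors that act mainly through Gi/o proteins, except the cholecystokinin receptor, which acts mainly through Gq, and Galr2, which can also use Gq. Gi/o signalling lowers cyclic AMP, opens potassium channels and closes calcium channels, so that a nerve terminal releases less transmitter. In the spinal dorsal horn this is how opioids relieve pain at the central terminals of sensory neurons. Neuropeptide Y and galanin are peptides that adult sensory neurons make after axon injury, and cholecystokinin is known as a peptide that opposes opioid pain relief.

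The promoter sequences of the receptor that rose most and of the receptor that fell are shown because they are the regions that lie at the start of each transcript. Each run is the 250 bases before the RefSeq start, read on the gene's strand from GRCm38.p6, with capitals marking the letters CACGTG (the E-box). Cckbr lies on chromosome 7 (plus strand, chr7:105425481-105425730) and Oprd1 on chromosome 4 (minus strand, chr4:132144487-132144736).
Cckbr: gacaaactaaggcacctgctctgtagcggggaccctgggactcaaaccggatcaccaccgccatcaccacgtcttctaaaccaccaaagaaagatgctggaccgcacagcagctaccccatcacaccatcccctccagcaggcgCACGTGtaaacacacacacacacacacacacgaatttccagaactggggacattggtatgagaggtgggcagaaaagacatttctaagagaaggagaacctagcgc
Oprd1: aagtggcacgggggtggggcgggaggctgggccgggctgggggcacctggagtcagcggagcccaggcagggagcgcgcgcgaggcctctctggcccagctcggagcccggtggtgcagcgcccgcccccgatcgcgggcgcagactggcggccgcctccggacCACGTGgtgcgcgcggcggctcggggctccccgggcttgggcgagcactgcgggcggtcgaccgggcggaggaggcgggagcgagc
The Cckbr run held 9 CpG pairs at 53.6% GC, and the Oprd1 run held 34 CpG pairs at 80% GC. Over all 32851 RefSeq windows of this length the medians were 6 CpG pairs and 52.4% GC, and 96.5% of windows had fewer CpG pairs than that of Oprd1. A sequence window was at hand for 7 of the 9 receptors. The letters TGANTCA (AP-1), TGACGTCA (CRE) and CACGTG were searched on both strands, and each reads the same on either strand. They were chosen with the sequences and the counts in view. AP-1 letters were in 6.75% of all windows and in that of Npy1r alone among the receptors, 231 bases before the RefSeq start. CRE letters were in 1.55% of all windows and in that of Sstr2 alone, 58 bases before the start. The E-box was in 6.02% of all windows and began 106 bases before the start of Cckbr and 86 bases before that of Oprd1, genes that moved in opposite directions.

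The libraries held 7531967 to 19443627 fragment counts outside spike-ins. CT010467.1, a feature on chromosome 17, took 29.4% to 93.8% of them, which left 770328 to 11587094 counts for all other genes. Its median share was 39.04% in injured libraries (29.4% to 59.73%) and 65.73% in intact ones (40.41% to 93.83%). Median counts for all other genes were 6023691 in injured and 4574940 in intact libraries, and median genes detected were 18326 and 14765. At 1 month the median counts were 6274406 and 6788090, so the order turned. Median spike-in shares were 2.14% in injured and 14.39% in intact libraries. The part of these differences in intact values of 0 was not tested. Intact 12-month library 2 stood apart from the others of its group, with rank correlations of 0.663 and 0.717 to them and 93.8% of its counts on CT010467.1. Without it, edgeR called 1462 genes with injury over the 3 ages in place of 878. The injury labels were checked with Atf3 and Sprr1a, which sensory neurons switch on after axon injury. Sprr1a measured 510 ± 313 CPM (fragment counts scaled per TMM-effective library size of 1000000, SD, n = 9) in injured and 0.212 ± 0.266 CPM (SD, n = 9) in intact libraries. The 10 neuron markers summed to 5760 to 8150 CPM in injured libraries against 4010 to 7600 CPM in intact ones. Of these 10, 1 had a log2 change above 0 and 9 below with TMM scaling, with a median of -0.16. Tubb3, the marker with the highest CPM, rose (3740 ± 748 CPM in injured libraries against 1900 ± 739 CPM in intact ones, SD, n = 9 each). Rbfox3 fell (66.5 ± 29.2 CPM against 146 ± 85.1 CPM, SD, n = 9 each). Satellite glia markers summed to 114 to 2010 CPM (median 687) in injured and 46.6 to 742 CPM (median 137) in intact libraries, and 0 of the 6 markers passed the test. None of these 6 glial markers was at 0 in all libraries, and Apoe, the one with the highest CPM, was counted in 18 of 18. Schwann cell markers summed to 311 to 550 CPM in injured libraries against 205 to 867 CPM in intact ones, with 0 of 6 called. The part of glial RNA in the changes below was not tested. Among markers of nonpeptidergic neurons, 7 were tested, and Il31ra rose while the other 6 had log2 changes below 0, with TMM scaling, that did not pass the test (median of the 7 -0.79). Adcyap1, a peptidergic marker, rose, and the part of neuron subtypes in the receptor values was not tested. In bulk libraries, fewer cells of a type and less RNA per cell cannot be told apart. Immune markers summed to 1.88 to 11.5 CPM in injured libraries against 0 to 32.5 CPM in intact ones, and Ptprc, which marks all white blood cells, was at 0 in 15 of 18.

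In the annotation of the count table (mm10), the genes lie at chr1:5588466-5606131 (Oprk1), chr3:82538383-82548084 (Npy2r), chr4:132110726-132144486 (Oprd1), chr7:105425731-105470898 (Cckbr) and chr8:66697192-66706792 (Npy1r). The others are at chr10:6758506-7038198 (Oprm1), chr11:113619342-113626028 (Sstr2), chr11:116280939-116283938 (Galr2) and chr18:82392496-82406777 (Galr1), and counts cover all annotated exons of each gene, UTRs included.

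Across the 3 ages together, 3 of the 8 receptors that passed the expression filter changed with injury, where 6.18% of 14212 genes did (878 genes). With 1 library left out, 561 to 1462 genes were called, with 561 without injured 12-month library 2, 578 without injured 1-month library 1 and 1462 without intact 12-month library 2, and the number of receptors called was 2 to 4. Cckbr and Npy1r rose (5.11% of genes were called higher) and Oprd1 fell (1.07% called lower), at adjusted p below 0.05 in edgeR's quasi-likelihood test with Benjamini-Hochberg adjustment. The fall of Oprd1 turned to a log2 change of 0.18 when libraries were scaled by spike-ins, a scaling that moved the median of all genes to 2.90. The median fitted log2 change of the 8 receptors was 1.84, against 0.03 for all genes tested, with 7 above 0 and 1 below. From pooled counts, which do not lean on the model's prior count, the medians were 0.25 for the receptors and -0.03 for all genes, with 6 of 8 receptors above 0. The count of 3 became 1, Cckbr, with the replicate number as a block.

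**Figure D1:**
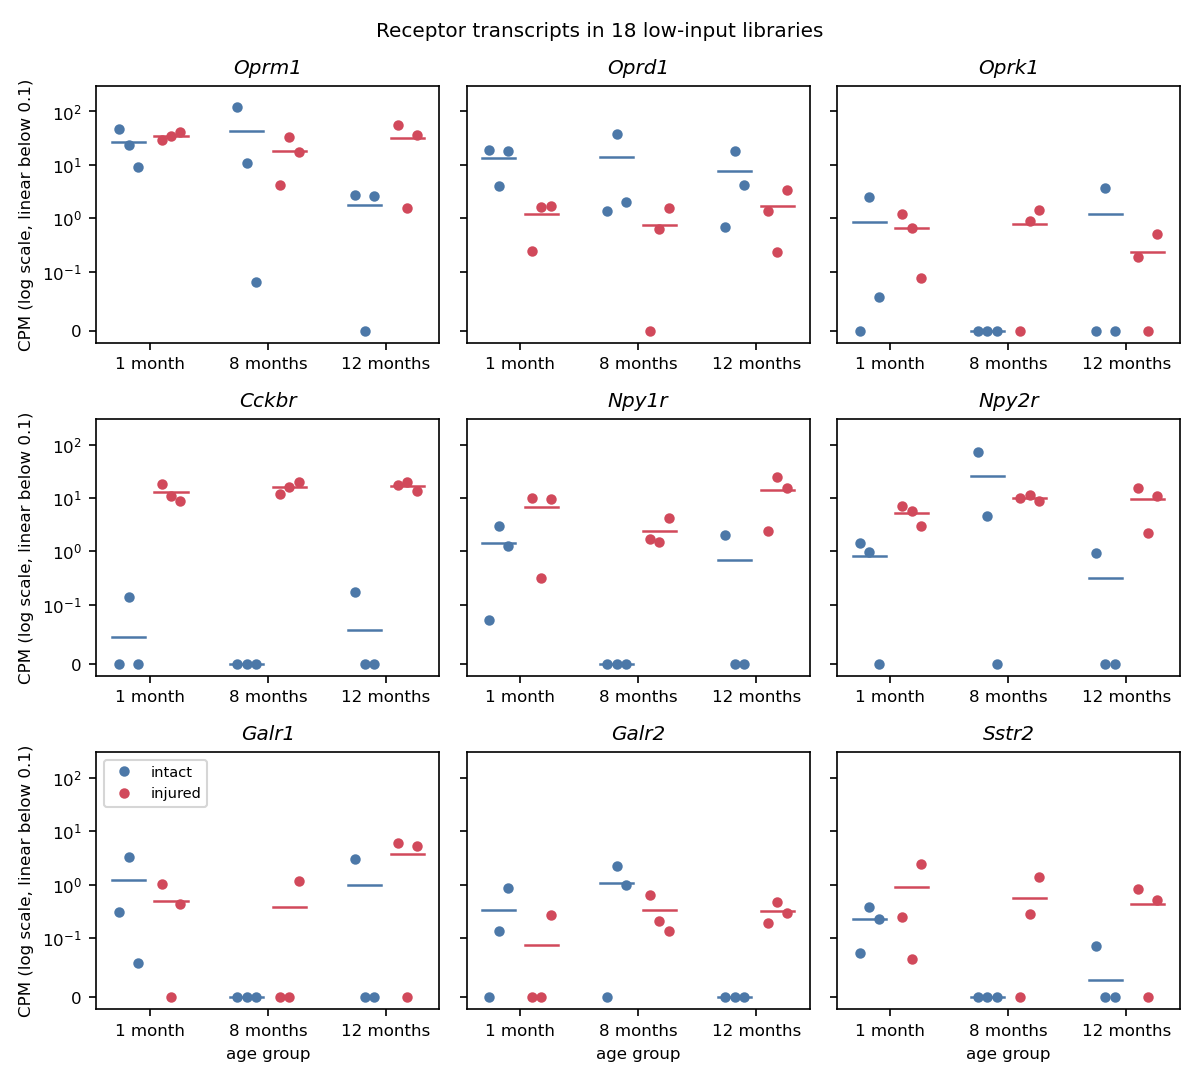
CPM of each receptor in the 18 low-input libraries, on a log axis that is linear below 0.1 CPM, by age group. Points are libraries, blue for intact and red for injured, and bars are group means; for Cckbr every injured library (8.75 to 20.2 CPM) lies above every intact one (0 to 0.171 CPM).

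Cckbr encodes the cholecystokinin B receptor, the main receptor of cholecystokinin in the nervous system. At 1 month it measured 18.3, 11.1 and 8.75 CPM in injured libraries 1 to 3 and 0, 0.137 and 0 CPM in intact libraries. At 8 months the values were 11.9, 15.9 and 19.8 CPM in injured libraries and 0 in each of the 3 intact ones. At 12 months they were 17.9, 20.2 and 13.3 CPM in injured libraries against 0.171, 0 and 0 CPM in intact ones. All 9 injured libraries were thus above all 9 intact ones, a separation shown by 0.943% of genes tested, and 1.83% of genes separated within every age in this direction.

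The injured libraries held 2034 counts of Cckbr and the intact ones 6, a 281-fold ratio per effective library size (95% interval 129 to 767, counting error only). The ratio was 198 at 1 month (interval 76.9 to 729) and 146 at 12 months (interval 40.4 to 1210). At 8 months Cckbr was at least 169-fold higher, against a floor of 3 counts over the intact group. The fitted log2 change over the 3 ages was 8.45 ± 0.52 (SE, adjusted p = 1.71e-07), a value that carries the model's prior count and is no bound. Cckbr was also the 1 receptor called at each age on its own, where 0.232% of genes were called at 1 month, 0.957% at 8 months and 2.99% at 12 months. Its adjusted p was 0.000247, 0.000139 and 0.00137 at 1, 8 and 12 months in edgeR's test. The call at 8 months was lost when only the 6 libraries of that age were fitted and in limma-voom, and that at 12 months with the share of CT010467.1 as a covariate. With each library left out in turn, the averaged log2 change was 8.30 to 9.68 and the adjusted p at most 5.04e-06. Without intact 12-month library 1, which held the only intact counts of that age, the change at 12 months was 10.84 in place of 7.14.

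The genes most like Cckbr over the 18 libraries were Sox9, Slfn9 and Nts, with Pearson r of 0.991, 0.984 and 0.982 on log2 CPM. These points share condition and depth, and the values only describe these libraries. Sox9, a transcription factor also known from glia, measured 3.75 ± 1.09 CPM in injured libraries against 0.0152 ± 0.0456 CPM in intact ones (SD, n = 9 each). Nts, the gene of the peptide neurotensin, measured 196 ± 80.1 CPM in injured libraries against 0.151 ± 0.195 CPM in intact ones (SD, n = 9 each).

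**Figure D2:**
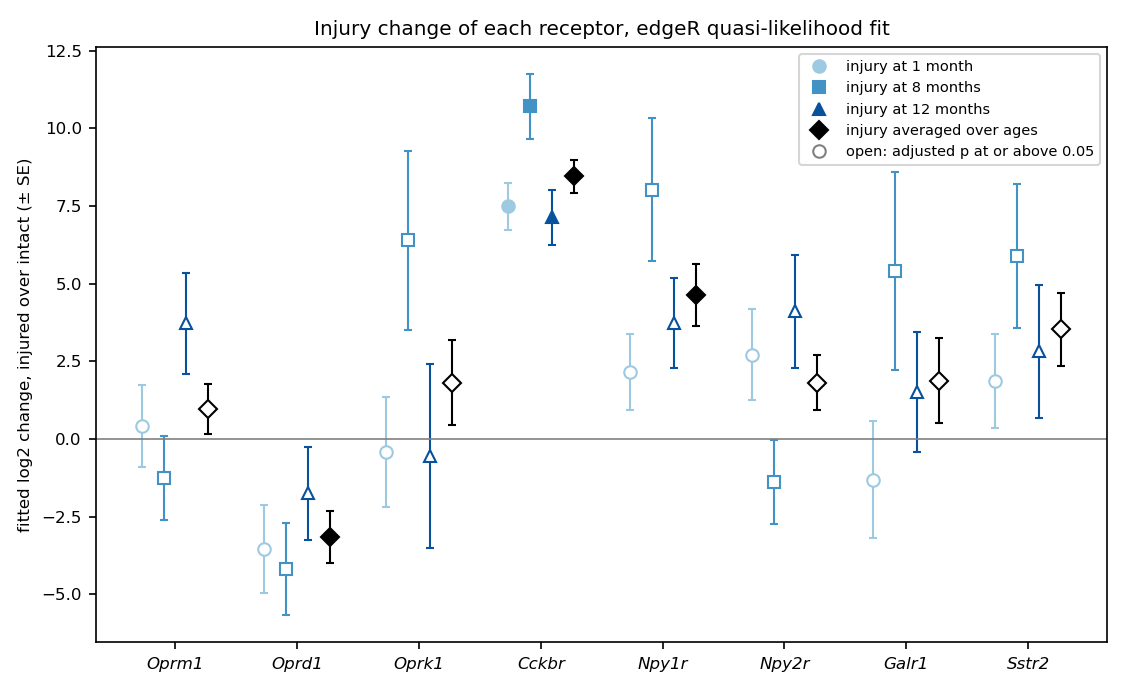
Fitted log2 change, injured over intact, with its SE, for the 8 receptors that passed the expression filter, at each age and averaged over ages. Filled symbols have an adjusted p below 0.05: Cckbr at every age, and Cckbr, Npy1r and Oprd1 in the average, where Oprd1 is negative except with spike-in scaling (0.18).

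Npy1r encodes the Y1 receptor of neuropeptide Y. At 1 month it measured 10.2, 0.321 and 9.54 CPM in injured libraries and 0.075, 3.04 and 1.27 CPM in intact ones. At 8 months it measured 1.67, 1.53 and 4.16 CPM in injured libraries and was at 0 in the 3 intact ones. At 12 months it measured 2.45, 24.3 and 15.2 CPM in injured libraries against 2.05, 0 and 0 CPM in intact ones. Injured libraries lay above intact ones at 8 and 12 months, as 9.39% and 19.2% of genes tested did, and the groups overlapped at 1 month through injured library 2. The pooled ratio over ages was 6.36 (95% interval 5.32 to 7.67, counting error only). The averaged log2 change was 4.64 ± 1.00 (SE, adjusted p = 0.0118), and no single age passed the test. The call held with each library left out in turn (adjusted p 0.00525 to 0.0258), and was lost with a replicate block (log2 change 4.73, adjusted p = 0.168), in limma-voom (3.67, 0.383) and with the share of CT010467.1 as a covariate (3.13, 0.461).

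Npy2r encodes the Y2 receptor, which acts on nerve terminals as an inhibitor of release. At 1 month it measured 7.14, 5.71 and 3 CPM in injured libraries against 1.42, 0.991 and 0 CPM in intact ones, and at 12 months 15.4, 2.23 and 11 CPM against 0.942, 0 and 0 CPM. At both ages the injured libraries lay above the intact ones, as 10.5% and 19.2% of genes tested did. At 8 months the injured libraries measured 10.1, 11.2 and 8.74 CPM and the intact ones 74.4, 4.54 and 0 CPM, and intact library 1 of that age held 87.7% of all intact counts of Npy2r. The averaged log2 change of 1.81 ± 0.88 did not pass the test (adjusted p = 0.263). Without that library it was 3.0 and passed (adjusted p = 0.0237 in edgeR's test), and the change at 8 months went from -1.39 to 2.17. Without intact 12-month library 1 the averaged change was 3.78 (adjusted p = 0.224). Npy2r measured 8.29 ± 4.23 CPM (SD, n = 9) in injured libraries against 9.14 ± 24.5 CPM (SD, n = 9) in intact ones. Its pooled log2 ratio was 0.12. Without intact 8-month library 1, which had the highest value, the intact mean was 0.987 ± 1.55 CPM (SD, n = 8). For Npy1r the most alike genes were Slc10a6, 2310034G01Rik and Gfra3, with Pearson r of 0.913, 0.902 and 0.873, and for Npy2r they were Ly75, Kcnt2 and Gpr149, with Pearson r of 0.934, 0.905 and 0.901 over 18 libraries.

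Oprd1 encodes the delta opioid receptor, which responds to enkephalins. At 1 month it measured 0.242, 1.6 and 1.68 CPM in injured libraries against 18.6, 4 and 18.3 CPM in intact ones, so that every injured library was below every intact one, as for 7.28% of genes tested. At 8 months it measured 0, 0.625 and 1.57 CPM in injured libraries against 1.34, 38.3 and 2.05 CPM in intact ones. At 12 months it measured 1.38, 0.234 and 3.35 CPM in injured libraries against 0.685, 18.1 and 4.13 CPM in intact ones, where the value of 18.1 rests on 10 counts in the library that stood apart. The groups overlapped at both later ages. Over all ages the intact libraries held 8.82 times the counts per effective library size of the injured ones.

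The averaged log2 change of Oprd1 was -3.16 ± 0.84 (SE, adjusted p = 0.0348), with no single age called. This call was lost in 11 of 18 fits that left out 1 library, with adjusted p from 0.0198 to 0.08 over the 18. Without intact 12-month library 2 it was -2.73 (adjusted p = 0.0541), and without intact 8-month library 2 it was -2.17 (adjusted p = 0.08). With a replicate block it was -2.83 (adjusted p = 0.171). With spike-in scaling, in which the log2 change was 0.18, Oprd1 stood at -2.71 relative to the median of all genes. Rgs7bp, Amdhd2 and Gm37711 were the genes most like Oprd1, with Pearson r of 0.817, 0.792 and 0.786.

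Oprm1 encodes the mu opioid receptor, the main target of morphine. At 1 month it measured 29.1, 34.2 and 41.6 CPM in injured libraries against 46.3, 23.3 and 9.17 CPM in intact ones. At 8 months it measured 4.16, 32.8 and 17.5 CPM in injured libraries against 120, 10.7 and 0.0821 CPM in intact ones. At 12 months it measured 56.9, 1.58 and 36.5 CPM in injured libraries against 2.74, 0 and 2.61 CPM in intact ones. The groups overlapped at every age, and the intact libraries spread over the wider range at 1 and 8 months and the injured ones at 12 months. The averaged log2 change of 0.96 ± 0.81 (SE) did not pass the test (adjusted p = 0.555 in edgeR's test), nor did any age. The 8-month intact library 1, which led Npy2r, also held 42.1% of the intact Oprm1 counts, and without it the change at 8 months went from -1.26 to 1.78 and the averaged change from 0.96 to 1.97 (adjusted p = 0.118). An exon of Oprm1 overlaps 96 bp of Ipcef1 on the other strand, and counting used no strand, so reads of the 2 genes cannot be told apart there; Ipcef1 had 117 counts over the 18 libraries. Bche, Fancb and Fer1l5 were the genes most like Oprm1, with Pearson r of 0.913, 0.911 and 0.909 over 18 libraries.

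The other 4 receptors were low. Oprk1, the kappa opioid receptor, which responds to dynorphins, ranged from 0 to 1.43 CPM in injured libraries and from 0 to 3.61 CPM in intact ones, with counts in 7 and 3 of 9. The intact value of 3.61 CPM rests on 2 counts in the library that stood apart, and without that library the intact mean went from 0.685 to 0.319 CPM and the highest value to 2.5 CPM. Its fitted log2 change was 1.81 ± 1.37 (SE, adjusted p = 0.503) while its pooled log2 ratio was -0.29, so its direction depends on how libraries are weighted. The fitted change was 3.60 (adjusted p = 0.177) without the library that stood apart and 3.18 (adjusted p = 0.219) without intact 1-month library 2. Galr1, the first galanin receptor, ranged from 0 to 5.96 CPM in injured libraries and from 0 to 3.28 CPM in intact ones (log2 change 1.87 ± 1.37, adjusted p = 0.487). The pooled log2 ratio of Galr1 was 0.34. Its fitted change was 0.07 without injured 8-month library 3 and 4.26 without intact 12-month library 1, with an adjusted p of 0.261 to 1 over the 18 fits that left out 1 library. Sstr2, a somatostatin receptor, ranged from 0 to 2.39 CPM in injured libraries and from 0 to 0.376 CPM in intact ones (log2 change 3.53 ± 1.17, adjusted p = 0.0887). The most alike gene was Tagap1 for Oprk1 (Pearson r 0.832), Ppfibp2 for Galr1 (0.813) and Traf3ip3 for Sstr2 (0.823), over 18 libraries.

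Galr2, the second galanin receptor, did not pass the expression filter. It had 30 counts in injured and 52 in intact libraries, with none in the 3 intact 12-month libraries and 15 in the injured ones of that age. Fitted without the filter, its averaged log2 change was 0.49 (edgeR p = 0.498, adjusted p = 1). Its pooled log2 ratio was -1.06, so the direction of Galr2 depends on how libraries are weighted. The unfiltered change was -1.95 at 1 month, -1.69 at 8 months and 5.12 at 12 months, where the intact group was at 0.

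Levels between receptors were compared as CPM per kb of exon. In injured libraries the order was Cckbr at 5.32 ± 1.44, Oprm1 at 3.52 ± 2.21, Npy2r at 2.45 ± 1.25 and Npy1r at 2.23 ± 2.31 CPM per kb (SD, n = 9 each). Galr1, Oprd1, Sstr2, Galr2 and Oprk1 followed, from 0.541 down to 0.0604 CPM per kb. In intact libraries the order was led by Oprm1 at 2.97 ± 4.85, Oprd1 at 2.91 ± 3.14 and Npy2r at 2.7 ± 7.24 CPM per kb (SD, n = 9 each). Galr1, Npy1r, Galr2, Oprk1 and Sstr2 followed, from 0.257 down to 0.0398 CPM per kb, with the library that stood apart included. Cckbr was the highest of the 9 in injured libraries and the lowest in intact ones, at 0.012 ± 0.0239 CPM per kb. In both conditions the ranges of every pair of neighbours in the order overlapped.

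Within intact libraries, where 0.922% of genes were called from 1 to 8 months, 0.246% from 1 to 12 months and 6.69% from 8 to 12 months, edgeR's test called 0 of the 8 receptors. At an unadjusted p below 0.05 the counts were 4, 1 and 5 of 8, where 16.2%, 10.7% and 25.3% of genes passed. DESeq2 called 2 receptors from 1 to 8 months, 0 from 1 to 12 months and 3 from 8 to 12 months, and limma-voom called 0 in each. Within injured libraries, where 0.225%, 0.113% and 0.0633% of genes were called in the same order, 0 of 8 receptors were called by any of these tools and 0 had an unadjusted p below 0.05 (4.99%, 3.86% and 4.29% of genes did). The injured level of Cckbr moved by log2 0.32 ± 0.52 from 1 to 8 months and by 0.11 ± 0.52 from 8 to 12 months (SE). The joint test of injury by age called 0 of 8 receptors (adjusted p 0.625 to 0.95) and 0% of all genes, with 0 of 8 receptors and 8.17% of genes at an unadjusted p below 0.05. DESeq2 and limma-voom called 0 receptors there too.

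Of the 10 peptide genes that act on these receptors, 7 had counts and 4 passed the filter. Npy and Gal rose and none fell. Npy measured 565 ± 229 CPM in injured libraries against 0.917 ± 1.22 CPM in intact ones (SD, n = 9 each, log2 change 9.69 ± 0.79, adjusted p = 3.18e-06). Gal, the gene of galanin, measured 344 ± 248 CPM in injured libraries against 1.71 ± 3.44 CPM in intact ones (log2 change 9.87 ± 0.88, adjusted p = 2.8e-05). In the same injured libraries Galr1 was at most 5.96 CPM and Galr2 at most 0.648 CPM.

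Cck, the gene of cholecystokinin, measured 1.76 ± 2.1 CPM in injured libraries against 0.393 ± 0.788 CPM in intact ones (SD, n = 9 each) and did not pass the test (log2 change 3.33 ± 1.21, adjusted p = 0.123, or 5.59 and 0.0578 without intact 12-month library 3). Cck had counts in 7 of 9 injured libraries and Cckbr in 9 of 9. Pomc, the precursor of beta-endorphin, measured 0.576 ± 0.284 CPM in injured libraries against 0.678 ± 0.771 CPM in intact ones (log2 change 0.11 ± 0.63, adjusted p = 0.955). The enkephalin precursor Penk had 12 counts in injured and 0 in intact libraries, the dynorphin precursor Pdyn 14 and 2, and Cort 10 and 5. Gast, Pyy and Sst had 0 counts in all 18 libraries.

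**Figure D3:**
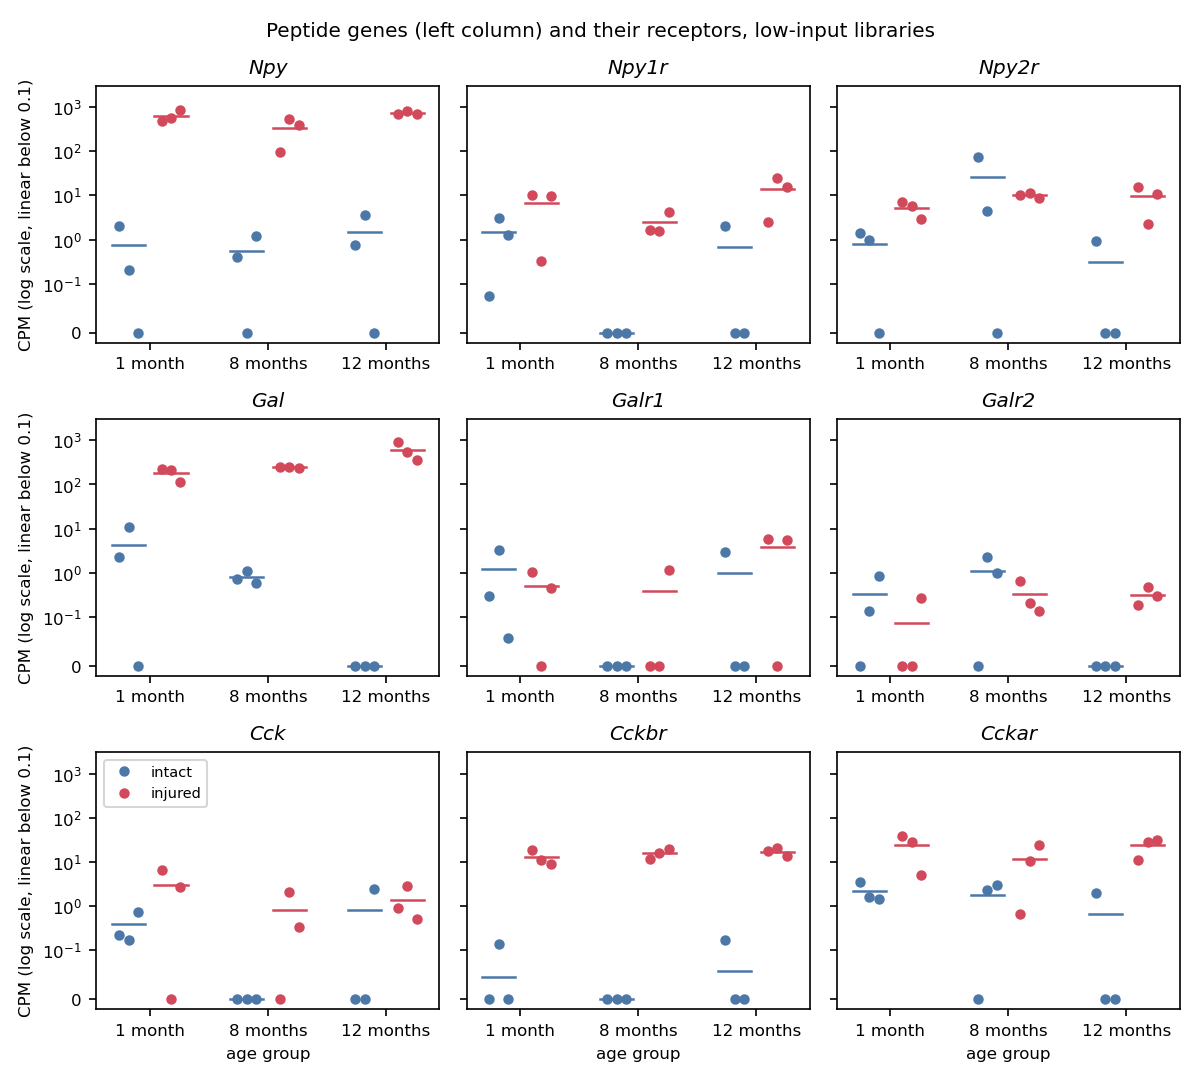
CPM of Npy, Gal and Cck (left column) and of 2 receptors of each (right columns) in the 18 low-input libraries, on a log axis that is linear below 0.1 CPM. Npy (97.2 to 838 CPM) and Gal (112 to 930 CPM) in injured libraries lie above every intact library (at most 3.61 and 10.7 CPM), and Cckar and Cckbr are both higher in the injured means.

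Among the 10 other receptors of the same families, 9 had counts, 4 passed the filter and 1, Cckar, rose. Cckar, the cholecystokinin A receptor, measured 19.8 ± 13.1 CPM in injured libraries against 1.54 ± 1.32 CPM in intact ones (SD, n = 9 each, log2 change 3.55 ± 0.72, adjusted p = 0.00736). The rise of Cckar held with each library left out (adjusted p 0.00183 to 0.0206), was lost in limma-voom (0.171) and turned to -0.73 with the share of CT010467.1 as a covariate. Without intact 12-month library 1 its log2 change was 5.83. Oprl1, the nociceptin receptor, measured 9.62 ± 5.49 CPM in injured libraries against 15.6 ± 7.11 CPM in intact ones (log2 change -0.78 ± 0.46, adjusted p = 0.374). Its direction turned with spike-in scaling (1.89). Sstr1 (log2 change 2.18 ± 1.19) and Sstr4 (0.88 ± 1.75) did not pass the test either, and 1 intact library held 52.5 CPM of Sstr4. The change of Sstr1 was 3.54 without intact 8-month library 3 (adjusted p = 0.132). That of Sstr4 was 4.50 without intact 8-month library 1 (adjusted p = 0.0759), 0.08 without injured 1-month library 1 and 0.30 without injured 12-month library 1. Npy5r had 30 counts in injured and 0 in intact libraries, Sstr3 32 and 1, Sstr5 2 and 12, Npy4r 2 and 0, and Galr3 2 and 0, and Npy6r had none.

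Of 36 receptors of other peptides, 21 were tested and 2 rose, beside the 5.11% of all genes called higher. Without intact 12-month library 2 the count was 4. Mc4r, a melanocortin receptor, measured 2.58 ± 2.39 CPM in injured libraries against 0.413 ± 0.602 CPM in intact ones (SD, n = 9 each, adjusted p = 0.00518). Prokr2, a prokineticin receptor, measured 23.1 ± 15.6 CPM in injured libraries against 2.63 ± 3.16 CPM in intact ones (adjusted p = 0.0134). The median log2 change of this list was 1.47, or 0.47 from pooled counts.

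Of 28 partners of Gi/o signalling, 25 were tested, 2 rose and none fell (5.11% and 1.07% of all genes did), with a median log2 change of -0.18. The count that rose was 1 to 4 with 1 library left out, and 4 without intact 8-month library 1. Arrb1, which encodes a beta-arrestin that uncouples receptors from G proteins, measured 137 ± 21.2 CPM in injured libraries against 75.8 ± 41.1 CPM in intact ones (SD, n = 9 each, log2 change 0.99 ± 0.22, adjusted p = 0.0105). Adcy8, an adenylyl cyclase, measured 3.75 ± 0.978 CPM in injured libraries. In intact ones it ranged from 0 to 20.7 CPM (adjusted p = 0.0395), and its call was lost in 14 of 18 fits that left out 1 library (adjusted p 0.00214 to 0.105).

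In single cells each group counts as 1 sample, since no animal is named, and no test between groups was made. CPM per cell leaves out CT010467.1 and spike-ins, and a cell is counted as having a gene at 1 CPM or more. The cells differed in depth, with medians of 1033580 and 291824 counts in injured and intact cells at 1 month and 3571619 and 7145018 at 1 year. Sprr1a was found in 13 of 21 injured and 2 of 18 intact cells at 1 month, and in 4 of 21 and 0 of 8 at 1 year. Atf3 was found in 17 of 21 and 13 of 18 cells at 1 month, so Atf3 was in most cells of either label. As a guide to background, the immune gene Ptprc was found in 6 of 68 cells and Lyz2 in 19 of 68.

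**Figure D4:**
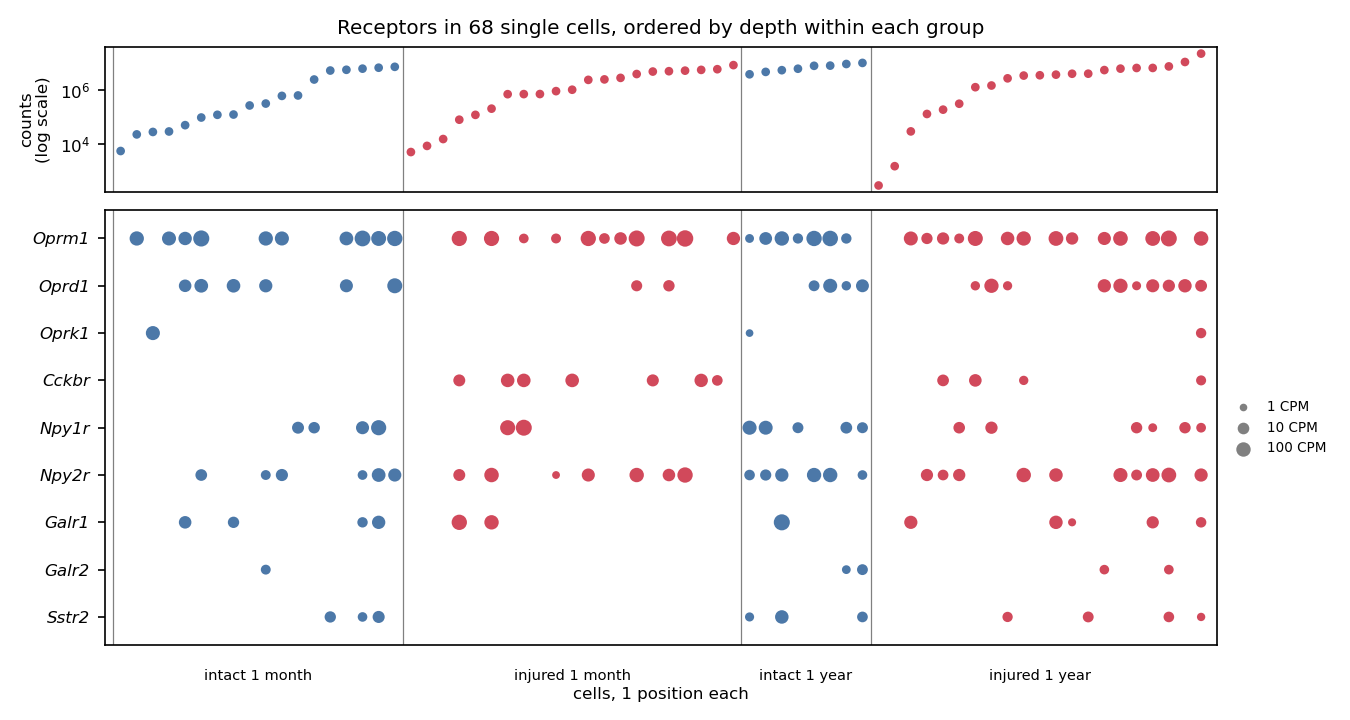
The 9 receptors (rows) in 68 single cells, with each cell's counts outside spike-ins and the most counted feature above on a log axis; cells are ordered by depth within 4 groups. A dot marks 1 CPM or more and its area grows with log CPM; Cckbr dots are in injured cells only (11 of 42), and Oprm1 dots are the most numerous (42 of 68 cells).

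Cckbr was found in 7 of 21 injured cells at 1 month (33.3%, 95% exact binomial interval 14.6% to 57%) and in 4 of 21 at 1 year (19%, interval 5.45% to 41.9%). It had 0 counts in all 26 intact cells. A limit of 3 cells in 26 allows a share of up to 11.5%, and the exact binomial interval reaches 13.2%. Both concern cells with a count at these depths, not cells that express the gene. The 11 cells with Cckbr measured 2.3 to 48.4 CPM (median 13.9). Pooled over cells, Cckbr measured 8.62 CPM in injured cells at 1 month (exact Poisson interval 7.84 to 9.46, counting error only) and 1.27 CPM at 1 year (interval 1.05 to 1.52). A single cell gave 51.8% of these counts at 1 month and 68.4% at 1 year, and the other cells measured 4.67 and 0.535 CPM. After each cell was thinned to 200000 counts, 6 of 16 injured and 0 of 10 intact cells at 1 month had a count of Cckbr, and 1 of 16 and 0 of 8 at 1 year. The direction of Cckbr was the same as in the low-input libraries.

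Other transcripts of injury were counted in the same cells as Cckbr. Sprr1a was found in 9 of them, and in 8 of the 31 injured cells without Cckbr. Npy was found in 8 of the 11, and in 8 of the other 31. Gal was found in 10 of the 11, and in 13 of the other 31. Of cells with 1000000 or more counts, Sprr1a was found in 5 of the 7 injured cells with Cckbr and in 3 of the 19 without. Cck was found in 6 of the 11 cells with Cckbr, and in 10 of all 42 injured cells, with no test made. All 7 Cckbr cells of 1 month came from the 13 injured cells whose names begin with L4, of which 11 had Sprr1a, and none from the 8 whose names begin with L5, of which 2 had Sprr1a. The median sum of satellite glia markers was 520 CPM in cells with Cckbr and 381 CPM in the 57 without.

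Oprm1 was the receptor found most often, in 42 of 68 cells, at 1.8 to 761 CPM (median 88.9). At 1 month it was found in 11 of 21 injured and 10 of 18 intact cells, and at 1 year in 14 of 21 and 7 of 8. Pooled Oprm1 measured 172 CPM in injured and 159 CPM in intact cells at 1 month (intervals 168 to 175 and 155 to 163) and 98.7 and 92.1 CPM at 1 year (intervals 96.7 to 101 and 89.6 to 94.7). In each group a single cell gave 36.9% to 46.8% of the Oprm1 counts, so these intervals do not cover the spread between cells. Without that cell of each group, pooled Oprm1 measured 104 CPM in injured and 112 CPM in intact cells at 1 month and 67.9 and 57.3 CPM at 1 year, so the order at 1 month turned.

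Markers of neuron subtypes were counted in cells with and without Oprm1, with no test made. Mrgprd, which marks nonpeptidergic nociceptors, was found in 25 of 42 cells with Oprm1 and in 2 of 26 without, Tac1, the substance P gene, in 23 of 42 and 3 of 26, and Th, which marks C-fibre neurons that respond to light touch, in 15 of 42 and 0 of 26. The summed neurofilament markers had a median of 5740 CPM in cells with Oprm1 and 11600 CPM in the others. The median depths were 3822168 and 709600 counts. Among the 40 cells with 1000000 or more counts, Tac1 was found in 18 of 28 cells with Oprm1 and in 3 of 12 without.

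Npy2r was found in 29 of 68 cells, and 27 of these 29 also had Oprm1. Of the 42 cells with Oprm1, 15 had no Npy2r, and 24 cells had neither. In cells with 1000000 or more counts, 18 of 20 cells with Npy2r had Oprm1. Npy2r was found in 7 of 21 injured and 6 of 18 intact cells at 1 month and in 10 of 21 and 6 of 8 at 1 year. Npy itself was found in 7 of the 29 cells with Npy2r and in 14 of the 39 without.

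Npy1r was lower in the pooled injured cells than in the intact ones, the opposite direction to the low-input libraries, and this difference was not tested. It was found in 2 of 21 injured and 4 of 18 intact cells at 1 month, and in 6 of 21 and 5 of 8 at 1 year. Pooled Npy1r measured 9.2 CPM in injured and 45 CPM in intact cells at 1 month (intervals 8.4 to 10.1 and 42.8 to 47.2), and 2.84 and 14.3 CPM at 1 year (intervals 2.5 to 3.2 and 13.3 to 15.3). At 1 month a single cell gave 86.7% of the intact counts of Npy1r and another gave 70.4% of the injured ones. Without that intact cell the intact value was 7.39 CPM, below the injured 9.2 CPM, and without the leading cell of each group the values were 2.76 CPM in injured and 7.39 CPM in intact cells. At 1 year they were 2.04 and 9.61 CPM without the leading cell of each group. After thinning, 2 of 16 injured and 4 of 10 intact cells at 1 month, and 5 of 16 and 4 of 8 at 1 year, had a count of Npy1r. The cells with Npy1r had a median of 13300 CPM of neurofilament markers, against 5750 CPM in the cells without. Their median depths were 6256975 and 1284350 counts, and the part of depth in this difference was not tested.

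**Figure D5:**
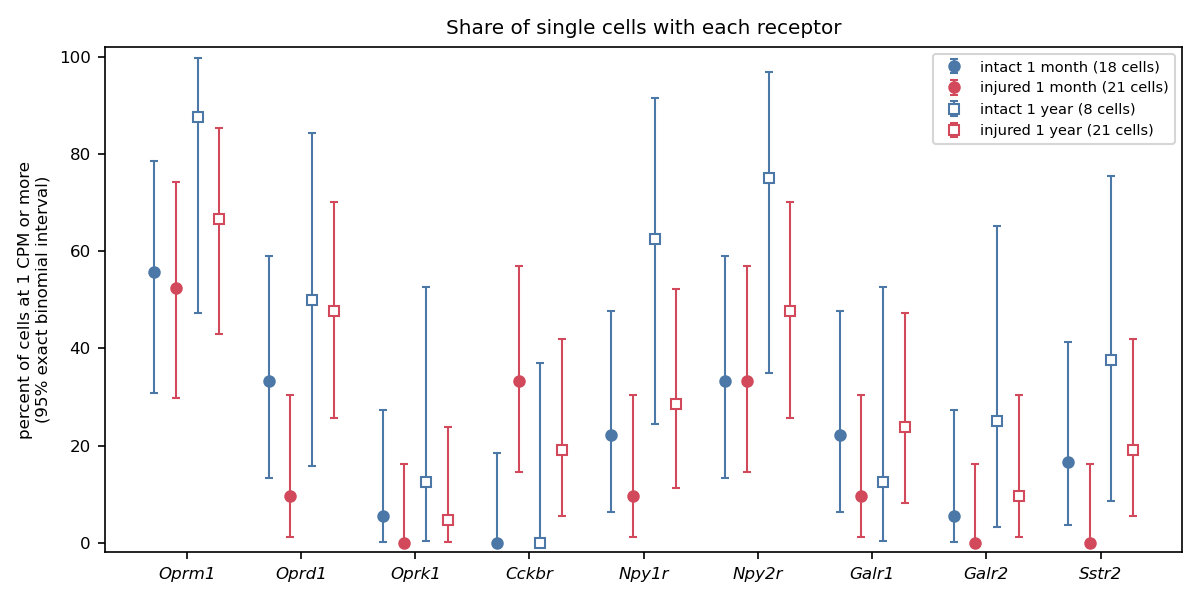
Percent of single cells at 1 CPM or more of each receptor, with 95% exact binomial intervals, in injured (red) and intact (blue) cells at 1 month (filled circles) and 1 year (open squares). The intervals of injured and intact cells overlap for each receptor at each age, and Cckbr is at 0% in both intact groups.

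Oprd1 was found in 2 of 21 injured and 6 of 18 intact cells at 1 month, and in 10 of 21 and 4 of 8 at 1 year. Pooled Oprd1 measured 1.41 CPM in injured and 40.8 CPM in intact cells at 1 month (intervals 1.11 to 1.77 and 38.8 to 42.9), where 1 intact cell gave 87.1% of the counts. Without the leading cell of each group the values were 0.643 and 6.59 CPM. At 1 year it measured 21 CPM in injured and 16.3 CPM in intact cells (intervals 20.1 to 21.9 and 15.3 to 17.4), or 16.2 and 7.15 CPM without those leading cells. In low-input libraries the injured group of Oprd1 lay below the intact one without overlap at 1 month. At 12 months the groups overlapped, and the fitted log2 change with TMM scaling was -1.75, the opposite direction to the pooled cells of 1 year. The joint test of injury by age did not call Oprd1 (adjusted p = 0.95 in edgeR's test). Of the 22 cells with Oprd1, 17 also had Oprm1, so both the mu and the delta opioid receptor were counted in 17 of 68 cells. Of the 46 cells without Oprd1, 25 had Oprm1. Median depths were 6010000 counts in cells with Oprd1 and 815100 in those without, and the part of depth in this overlap was not tested.

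The low receptors were each carried by few cells. Galr1 was found in 12 of 68 cells, 11 of which had Oprm1. Gal was found in 9 of these 12, and in 33 of all 68 cells, with no test made. By group, Galr1 was found in 2 of 21 injured and 4 of 18 intact cells at 1 month, and in 5 of 21 and 1 of 8 at 1 year. Pooled Galr1 measured 0.754 CPM in injured and 8.06 CPM in intact cells at 1 month, and 4.1 and 49.7 CPM at 1 year. Without the leading cell of each group the values were 0.369 and 1.12 CPM at 1 month. At 1 year they were 2.5 and 0.0197 CPM, so the order at 1 year turned. Sstr2 was found in 10 cells and in none of the 21 injured cells at 1 month, against 3 of 18 intact cells. For these 21 cells a limit of 3 cells allows a share of up to 14.3%, and the exact binomial interval reaches 16.1%. Pooled Sstr2 measured 0 CPM in injured and 4.27 CPM in intact cells at 1 month, and 1.22 and 5.53 CPM at 1 year. Without the leading cell of each group the values at 1 year were 0.877 and 1.3 CPM. In low-input libraries the averaged log2 change of Sstr2 was 3.53, the opposite direction, and did not pass the test. That of Galr1 was 1.87 and did not pass either. Galr2 was found in 5 cells and Oprk1 in 3. Of the 97 counts of Oprk1 in injured cells at 1 year, 100% came from a single cell, which had 22890735 counts, the most of any cell, and 8 of the 9 receptors at 1 CPM or more. The next highest number of receptors in a cell was 5, and 11 of 68 cells had none, at a median depth of 15071 counts.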

How the data were processed

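The authors deposited fragment counts per gene for 87 RNA libraries (18 low-input and 69 single cells). Per the file headers, featureCounts 1.5.2 counted read pairs over exons by gene name in GENCODE vM16 with spike-ins, without strand or multiply mapped reads. Exon lengths per gene are the deposited lengths, per the file headers. The submitters' processing notes name Trim Galore, STAR and the build mm10. The 94 methylation samples were not analysed here.

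The main test was edgeR 4.0.16 (R 4.3.3, quasi-likelihood, robust, TMM scaling, filterByExpr) with 1 mean per group over 18 libraries, Benjamini-Hochberg adjustment over 14212 genes and a threshold of 0.05. limma 3.58.1 and DESeq2 1.42.0 were alternatives. Library totals were 7531967 to 19443627 counts. A group at 0 was given a floor of 3 counts, and intervals (95%) cover counting error only. In single cells, 1 cell without counts was left out, and no test was made. Thinning and the values without the leading cell were chosen after seeing the data. Python 3.11.15 was used for all other values. The fit was also run on simulated counts with a dispersion common to all genes and known changes in well-counted genes only. Such counts do not mimic genes near 0 or a spread that differs between genes, so they do not check the receptor calls.

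The members and lists were chosen with earlier results of these data known. Named genes are the 9 receptors, their ligands and family receptors with counts, the genes most correlated with each receptor, up to 4 called genes of the other lists, the injury checks and leading markers. Same-numbered libraries deviated together at 1 month (Pearson r 0.116, 0.4 and 0.315 over 1497 genes) but not at 8 months (-0.465, -0.228 and -0.0431) or 12 months (-0.0641, -0.0806 and 0.0746). The labels do not say what a number marks.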

Additional observations from a re-analysis of the deposited data

Results flagged for a closer look

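Among the 8 intact single cells of 1 year, a single cell lay far above the other 7 for each of 4 of the 8 receptors that could be checked, and these were 3 cells in all. Galr1 measured 507 CPM in 1 cell, and the next highest cell had 0.21 CPM. Sstr2 measured 44.4 CPM in that same cell (5518334 counts), against 5.25 CPM in the next. Oprd1 measured 70.3 CPM in another cell, against 26.6 CPM in the next, and Galr2 measured 5.83 CPM in the third cell, against 1.71 CPM. Cells were marked by the gap to the next cell over the range. By chance this marks about 1 in 20 groups of normally distributed values. These CPM, with many cells at 0, are not so distributed, so the marks cannot be compared with chance.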

How the results depend on the processing

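With 3 libraries a group, the count of receptors called over all ages (3) was 7 with spike-in scaling, 6 without an expression filter, and 1 each in limma-voom, with the share of the most counted feature as a covariate and with a replicate block. The block changed no other receptor count (1, 1, 1 at each age and 0 for the interaction). Over all genes the 878 calls became 13493 with spike-in scaling (median log2 change 2.90), 1722 unfiltered, 1548 in DESeq2, 11 with the covariate and 329 with the block. At 1 month the count of 1 was 3 unfiltered. At 8 months it was 5 with spike-in scaling, 3 unfiltered, 3 in DESeq2, 0 in limma-voom and 0 with only the groups compared. At 12 months it was 8 with spike-in scaling, 4 unfiltered and 0 with the covariate. Between intact ages the count of 0 was 3, 7 and 3 with spike-in scaling (8 against 1, 12 against 1 and 12 against 8 months), 4, 1 and 4 unfiltered, and 2, 0 and 3 in DESeq2. With 1 library left out it ranged from 0 to 1 (8 against 1) and from 0 to 2 (12 against 8), in both cases through intact 8-month library 3. The interaction count was 2 unfiltered.

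Directions turned as follows, and the cause was not tested. With the covariate, averaged log2 changes were -1.81 for Oprm1, -11.64 for Galr1, -1.51 for Sstr2, -2.68 for Pomc and -0.73 for Cckar. At single ages they were -0.36 (1 month) and -1.41 (12 months) for Oprm1, -10.20 (8 months) and -20.56 (12 months) for Galr1, -5.70 for Sstr2 and 2.19 for Oprd1 (12 months). With spike-in scaling Oprd1 was 0.18 and Oprl1 1.89 on average, Oprk1 0.24 at 1 month, Oprm1 2.38 and Npy2r 2.09 at 8 months, and Oprd1 5.33 and Oprk1 6.11 at 12 months. In limma-voom Oprk1 was 0.57 at 1 month, Oprm1 2.58 and Npy2r 2.77 at 8 months, and Oprd1 0.12 and Oprk1 0.61 at 12 months. With a replicate block Oprk1 was 0.86 and Galr1 0.18 at 1 month, Oprm1 1.32 and Npy2r 1.22 at 8 months, and Oprk1 0.28 at 12 months. Pomc was -0.00 in DESeq2. With 1 library left out, the ranges were -1.21 to 4.0 for Oprk1, -2.50 to 1.45 for Galr1 and -0.58 to 2.43 for Sstr2 at 1 month, -1.99 to 1.78 for Oprm1 and -1.97 to 2.17 for Npy2r at 8 months, -2.17 to 4.73 for Oprk1 at 12 months, and -0.15 to 1.47 for Pomc.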
